A study of Arabidopsis thaliana with 48 samples.

Results

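The nitrilases NIT1 (AT3G44310), NIT2 (AT3G44300), NIT3 (AT3G44320) and NIT4 (AT5G22300) of Arabidopsis thaliana are 4 of the 33602 genes in the count table, and they were taken by their locus identifiers. The family was chosen by the measured ratio of DMBQ to DMSO for NIT2 at 6 h in wild type, which is high, so for that comparison the members' values are a description and carry no test. All 4 genes passed the filter on low counts that left 19839 genes. RNA was sequenced from whole seedlings of the accession Col-0 after 7 days in a liquid culture. DMBQ is 2,6-dimethoxy-1,4-benzoquinone, a quinone that parasitic plants of the Orobanchaceae sense when they form the organ that enters a host root, and DMSO is the solvent control at the same volume. The mutant, card1-2, is an allele of CARD1 (AT5G49760), which encodes a leucine-rich repeat receptor-like kinase needed for the response to quinones, and the wild type (WT) was the parent line. Both lines carried aequorin, a calcium-sensing photoprotein, so WT here is not an unmodified Col-0 plant. The 16 groups were card1 with 5 µM DMBQ, card1 with DMSO, WT with 5 µM DMBQ and WT with DMSO, each at 0, 0.5, 1 and 6 h, with 3 libraries per group. The mutant is represented by 1 allele, and the labels do not say whether the 3 libraries of a group came from separate cultures. A p-value here therefore measures how libraries differ within groups, and that may be technical.

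Nitrilases hydrolyse the carbon-nitrogen triple bond of organic nitriles to a carboxylic acid and ammonia. NIT1, NIT2 and NIT3 belong to a subfamily found in the Brassicaceae, and in vitro they accept indole-3-acetonitrile, the nitrile from which the auxin indole-3-acetic acid can be made, as well as nitriles that arise when glucosinolates break down. NIT4 belongs to a subfamily present in most plants, and it converts β-cyanoalanine, the product by which plants fix cyanide, to asparagine and aspartate. NIT3 is known as a gene induced by sulfur deprivation.

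In the RefSeq annotation of TAIR10.1, NIT2, NIT1 and NIT3 lie in tandem in that order on the plus strand of chromosome 3. NIT2 spans chr3:15983199-15985535, NIT1 spans chr3:15986624-15989505 and NIT3 spans chr3:15993259-15995811. The gap between NIT2 and NIT1 is 1088 bases and that between NIT1 and NIT3 is 3753 bases, and the cluster covers 12613 bases from the start of NIT2 to the end of NIT3. NIT4 stands apart on the plus strand of chromosome 5 at chr5:7379187-7382025. No other annotated gene overlaps any of the 4. Each has 5 exons in the transcript used here (the one with the longest coding sequence), and exons 2, 3 and 4 have the same lengths in all 4 genes, 180, 294 and 282 bases. The coding sequence is 1041 bases in NIT1, 1020 in NIT2, 1041 in NIT3 and 1068 in NIT4.

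**Figure D1:**
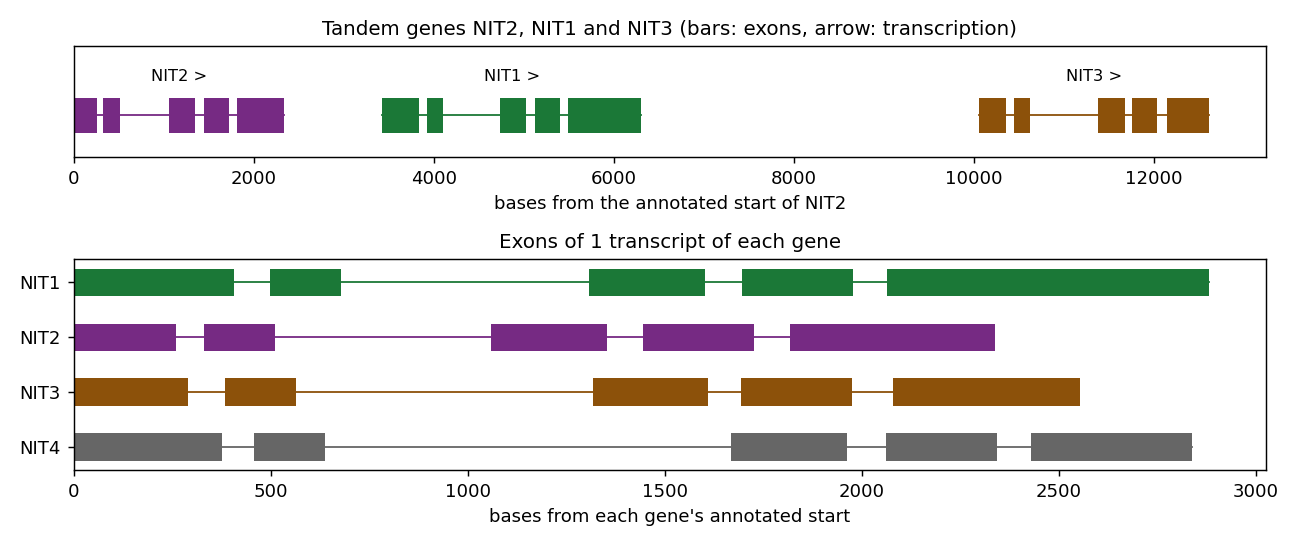
Gene structures in bases. The upper panel shows the 3 tandem genes by distance from the annotated start of NIT2, and the lower panel aligns the 4 genes at their own starts. Bars are exons and thin lines introns, and exons 2, 3 and 4 have equal lengths in all 4 genes.

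The tandem genes are close copies. Over global alignments of the coding sequences, NIT1 and NIT2 were identical at 89.5% of columns, NIT1 and NIT3 at 87.9%, NIT2 and NIT3 at 85.6%, and NIT4 shared 70.6% to 71.0% with the others. The longest run of identical coding bases between NIT1 and NIT2 was 104 bases, from coding base 592 to 695 of NIT1 and 571 to 674 of NIT2. It is shown because reads that fall inside it cannot be credited to either gene. Compared base by base with no gap, NIT3 differs from it at 12 bases and NIT4 at 25, given in capitals below (TAIR10.1, coding strand, counted from the A of the start codon at 1, NIT3 from 592 to 695 and NIT4 from 625 to 728).
NIT1: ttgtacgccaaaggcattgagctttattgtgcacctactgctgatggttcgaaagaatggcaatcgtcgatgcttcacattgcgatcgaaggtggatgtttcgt
NIT2: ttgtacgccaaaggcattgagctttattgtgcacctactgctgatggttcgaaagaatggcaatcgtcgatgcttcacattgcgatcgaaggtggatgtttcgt
NIT3: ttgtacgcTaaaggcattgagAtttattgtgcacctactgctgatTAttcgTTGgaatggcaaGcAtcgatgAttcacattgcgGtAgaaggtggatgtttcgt
NIT4: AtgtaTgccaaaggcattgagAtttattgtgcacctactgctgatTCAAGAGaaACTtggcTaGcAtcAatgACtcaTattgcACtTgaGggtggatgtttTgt

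Most of each transcript is nevertheless distinct. Of all 50-base windows, 95.1% in the NIT1 transcript, 94.2% in NIT2, 99.4% in NIT3 and all in NIT4 occurred at no other place in the annotated transcripts or the genome. With 75-base windows the shares were 98.4% in NIT1 and 97.9% in NIT2, and all windows in NIT3 and NIT4 were unique. The windows NIT2 shared were all shared with NIT1. The sources used here do not give the read length. Reads that align to more than 1 place were not credited to a gene in the table, and levels of NIT1 and NIT2 may miss the reads from the shared stretch.

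The sequences upstream of the genes are unlike each other. The 300 bases before the annotated starts aligned with 46.6% to 51.7% identity among the 4 genes, and with 48% between NIT1 and NIT2. They were searched on both strands for TGACG, the core bound by TGA transcription factors, TTGAC, the W-box core bound by WRKY factors, and CACGTG, the G-box. NIT1 and NIT2, the pair with higher levels in DMBQ at 6 h, held none of these letters in the 300 bases, while NIT3 held a CACGTG (capitals below) 13 bases before the start. NIT4 held TTGACG, in which TTGAC and TGACG overlap, 71 bases before the start and a second TTGAC on the minus strand 99 bases before it. Of 27431 promoters of the same length, 21.3% hold TGACG, 50.4% TTGAC and 7.09% CACGTG. The upstream sequences of the 3 tandem genes (RefSeq TAIR10.1, plus strand) are shown for comparison between the pair with higher levels in DMBQ and the gene beside it that did not pass the test.
NIT1, chr3:15986324-15986623: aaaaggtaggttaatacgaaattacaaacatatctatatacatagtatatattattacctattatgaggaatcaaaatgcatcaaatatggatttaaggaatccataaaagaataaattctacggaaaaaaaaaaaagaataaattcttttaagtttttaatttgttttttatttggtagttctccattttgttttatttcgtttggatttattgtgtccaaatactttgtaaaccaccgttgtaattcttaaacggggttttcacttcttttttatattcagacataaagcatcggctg
NIT2, chr3:15982899-15983198: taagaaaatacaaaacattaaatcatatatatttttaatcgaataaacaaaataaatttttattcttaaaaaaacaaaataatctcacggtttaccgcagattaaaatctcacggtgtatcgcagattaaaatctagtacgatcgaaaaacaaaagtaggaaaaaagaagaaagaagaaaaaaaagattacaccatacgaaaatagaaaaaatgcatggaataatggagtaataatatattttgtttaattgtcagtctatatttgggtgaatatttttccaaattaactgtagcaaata
NIT3, chr3:15992959-15993258: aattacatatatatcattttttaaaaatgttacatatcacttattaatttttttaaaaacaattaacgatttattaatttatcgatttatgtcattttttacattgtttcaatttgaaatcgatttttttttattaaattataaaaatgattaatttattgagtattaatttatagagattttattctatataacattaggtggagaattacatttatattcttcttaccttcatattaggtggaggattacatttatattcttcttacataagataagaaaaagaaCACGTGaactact

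Levels were compared as CPM, the reads of a gene scaled to a common number of gene reads per library (TMM-scaled library sizes). Libraries held 4764682 to 14492051 reads in genes, with a median of 8489009. The mutated gene CARD1 had 17.7 to 34.7 CPM in the 24 card1 libraries, against 66.7 to 99.8 CPM in the 24 WT libraries, without overlap. The 8 shoot marker genes (RBCS1A, RCA and light-harvesting genes among them) summed to 16130 to 41770 CPM and the 8 root marker genes to 110.1 to 190.5 CPM, and no marker was at 0 in any group, so tissue of both kinds was present. In such bulk samples fewer cells of a type and less RNA per cell cannot be told apart.

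NIT1 was by far the most abundant nitrilase transcript. Per kilobase of transcript its mean over the 16 groups was 273 CPM, against 12.3 for NIT3, 5.49 for NIT4 and 4.76 for NIT2. With the length of all annotated exons of a gene in place of 1 transcript, NIT1 stood at 219 CPM per kilobase, NIT3 at 12.3, NIT2 at 4.76 and NIT4 at 3.46, so the order of NIT2 and NIT4 depends on the length used. In single libraries NIT1 was 23.0 to 188.4 times NIT2 per kilobase of transcript, with a median of 68.6. It was 12.1 to 44.3 times NIT3 and 14.5 to 295.7 times NIT4. Depth differed accordingly: NIT1 had 1703 to 10766 reads per library, NIT3 86 to 290, NIT4 5 to 287 and NIT2 7 to 259, and the median ratio of SD to mean within a group was 0.112 for NIT1, 0.123 for NIT3, 0.280 for NIT2 and 0.310 for NIT4.

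**Figure D2:**
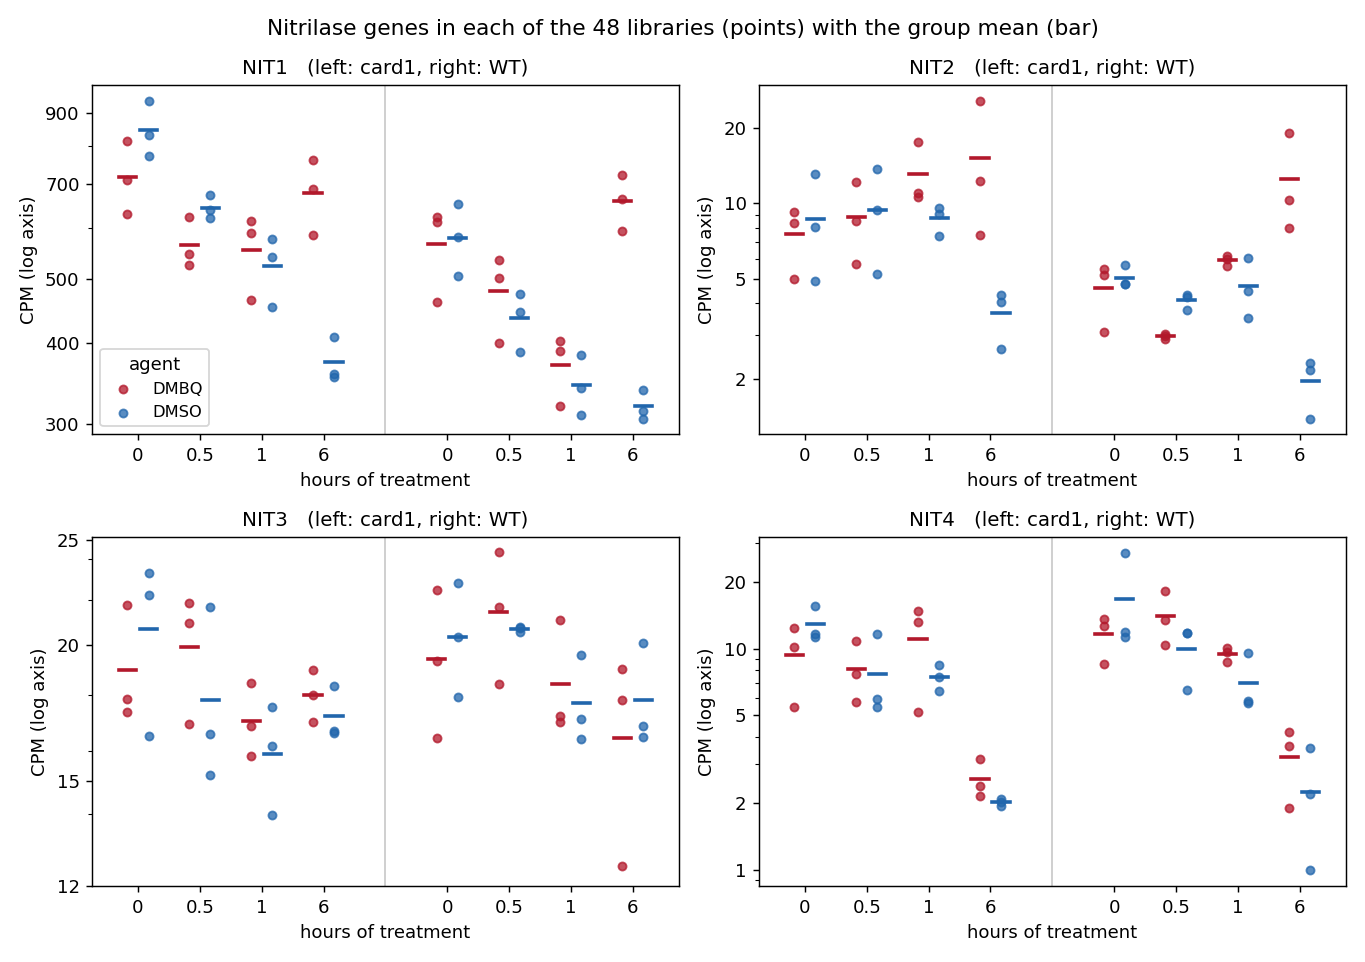
CPM on log axes of NIT1, NIT2, NIT3 and NIT4 in each of the 48 libraries, by hours of treatment (evenly spaced), with card1 left and WT right in each panel. Points are libraries and bars group means of 3, DMBQ in red and DMSO in blue; NIT1 and NIT2 in DMBQ lie above DMSO at 6 h in both genotypes, NIT3 stays between 12.5 and 24.4 CPM, and NIT4 is low at 6 h under both agents.

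The 16 group means order differently for each gene. For NIT1 they ran from 847 CPM in card1 with DMSO at 0 h down to 319.8 CPM in WT with DMSO at 6 h, and only 2 of the 15 gaps between neighbours in this order were larger than the larger SD of the pair: the gap below the highest group, and that between WT with DMSO at 0.5 h (436.4) and card1 with DMSO at 6 h (373.4). For NIT2 the order ran from 15.1 CPM in card1 with DMBQ at 6 h, 13.1 in card1 with DMBQ at 1 h and 12.5 in WT with DMBQ at 6 h down to 1.96 in WT with DMSO at 6 h. The gaps of NIT2 beyond the SD were 2, below WT with DMBQ at 1 h and above WT with DMSO at 6 h. NIT3 spanned 15.9 to 21.5 CPM, a ratio of 1.35, with no neighbour gap beyond the SD, and the libraries overlapped in all 28 comparisons of single groups by agent, genotype or time. NIT4 spanned 2.02 to 16.8 CPM, and its 1 gap beyond the SD lay between the lowest group at an earlier time, WT with DMSO at 1 h (7.01), and the highest at 6 h, WT with DMBQ (3.25).

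NIT1 and NIT2 were higher after 6 h of DMBQ than after 6 h of DMSO in the card1 mutant. NIT1 had 584, 687 and 761 CPM in card1 with DMBQ, against 358, 355 and 408 CPM in card1 with DMSO. All 3 DMBQ libraries lay above all 3 DMSO libraries, as they did for 8.84% of all genes tested. NIT1 was 1.81-fold higher in DMBQ (log2 fold change 0.86 ± 0.13 SE, adjusted p = 2.05e-05, edgeR's quasi-likelihood test with Benjamini-Hochberg adjustment). NIT2 had 7.49, 12.3 and 25.6 CPM in card1 with DMBQ (97, 114 and 259 reads), against 4.06, 2.63 and 4.31 CPM in card1 with DMSO (31, 31 and 32 reads). The groups did not overlap, though the DMBQ libraries differed among themselves by more than the gap between the lowest of them and the highest DMSO library. NIT2 was 4.2-fold higher in DMBQ (log2 fold change 2.07 ± 0.40, adjusted p = 0.00221). In this comparison 1.05% of genes were called in either direction and 0.832% as higher, and of the 4 nitrilases 2 were called, both higher. None of the 16 shoot and root markers was called at 6 h in either genotype by edgeR, with 2 at an unadjusted p under 0.05 in each genotype, and DESeq2 called none in card1 and 1 in WT. The NIT2 call did not hold in edgeR without replicate 3 of the DMBQ group (log2 fold change 1.45, adjusted p = 0.0824). It did not hold without replicate 2 of the DMSO group (1.83, adjusted p = 0.0527). Nor did it hold with scaling and model fitted on the compared libraries alone (2.08, adjusted p = 0.319).

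NIT3 and NIT4 did not pass the test in card1 at 6 h. NIT3 had 18.0, 17 and 19.0 CPM with DMBQ, against 18.3, 16.6 and 16.7 CPM with DMSO, groups that overlap (log2 fold change 0.07, 95% interval -0.22 to 0.36, adjusted p = 0.937). NIT4 had 2.39, 2.15 and 3.17 CPM with DMBQ, against 2.1, 1.95 and 2.02 CPM with DMSO. The NIT4 libraries did not overlap, but its difference was small beside its error (log2 fold change 0.35, 95% interval -0.79 to 1.49, adjusted p = 0.904), and 15 to 32 reads stood behind each value.

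In WT the same comparison gave the values by which NIT2 had been noticed. NIT2 had 7.96, 10.3 and 19.1 CPM in WT with DMBQ, against 1.39, 2.31 and 2.17 CPM in WT with DMSO, where 7, 20 and 14 reads were counted. The fitted log2 fold change was 2.62 ± 0.49, a 6.14-fold higher level in DMBQ. NIT1 had 593, 723 and 664 CPM in WT with DMBQ, against 339, 314 and 306 CPM in WT with DMSO (log2 fold change 1.05 ± 0.13, 2.06-fold). Both genes were apart between agents, and the highest DMBQ library was replicate 2 for NIT1 and replicate 3 for NIT2. NIT3 had 17.8, 12.5 and 19.0 CPM with DMBQ, against 20.1, 16.9 and 16.5 CPM with DMSO (log2 fold change -0.10 ± 0.15), and NIT4 had 4.21, 1.91 and 3.64 CPM with DMBQ, against 0.995, 2.20 and 3.57 CPM with DMSO (0.50 ± 0.58), both with overlap. Over all genes 1.22% were called in this comparison and 1.02% as higher, and libraries lay apart with DMBQ above for 10.1%.

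For the responses of the mutant and WT at 6 h, the intervals of NIT1 and NIT2 hold no difference, with 3 libraries per group. The WT ratio of NIT2 that chose the family is part of this comparison, and a high ratio in WT lowers card1 minus WT. The members' values and intervals are therefore a description and carry no test. The difference of the log2 fold changes, card1 minus WT, was -0.19 for NIT1 (95% interval -0.55 to 0.18) and -0.55 for NIT2 (95% interval -1.92 to 0.82). The NIT2 difference was -0.09 without replicate 3 of WT with DMBQ and -1.17 without replicate 3 of card1 with DMBQ, the ends of its range when 1 library was left out. Its interval is wide, and it holds no difference as well as a response lower by more than 1 log2 unit in card1. No gene was called for this difference by edgeR's quasi-likelihood test or by DESeq2, and 1041 had an unadjusted p under 0.05 in edgeR.

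At the earlier times no nitrilase passed the test for DMBQ against DMSO in either genotype. The 24 log2 fold changes at 0, 0.5 and 1 h ran from -0.59 to 0.60, and none had an unadjusted p under 0.05 in edgeR or a call in DESeq2, which gave no adjusted p for 2 of them. The share of all genes called was 5.45%, 0.151% and 1.18% at 0, 0.5 and 1 h in card1 and 0.126%, 2.45% and 2.78% in WT. In WT at 0 h the count was 25 genes, or 46 with the replicate number as a block. In card1 at 0 h it was 1082 genes, 0 without replicate 2 of the DMSO group and 4103 without replicate 3 of that group. Of the 16 shoot and root markers 2 root genes, EXPA7 and EXPA18 of the root hair wall, were lower with DMBQ in WT at 0.5 and 1 h, and EXPA7 in card1 at both times, and 1 root gene, SCARECROW, was higher in card1 at 0 h. Their part in the nitrilase values was not tested. NIT2 libraries were nevertheless apart in a pair of these comparisons, with no call: at 1 h in card1 they held 11, 10.7 and 17.6 CPM with DMBQ, against 7.46, 9.10 and 9.63 CPM with DMSO, where 5.53% of genes lay apart in this direction. At 0.5 h in WT they held 2.88, 2.98 and 3.03 CPM with DMBQ, against 3.78, 4.34 and 4.26 CPM with DMSO, lower in DMBQ, where 11.7% of genes lay apart in this direction.

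**Figure D3:**
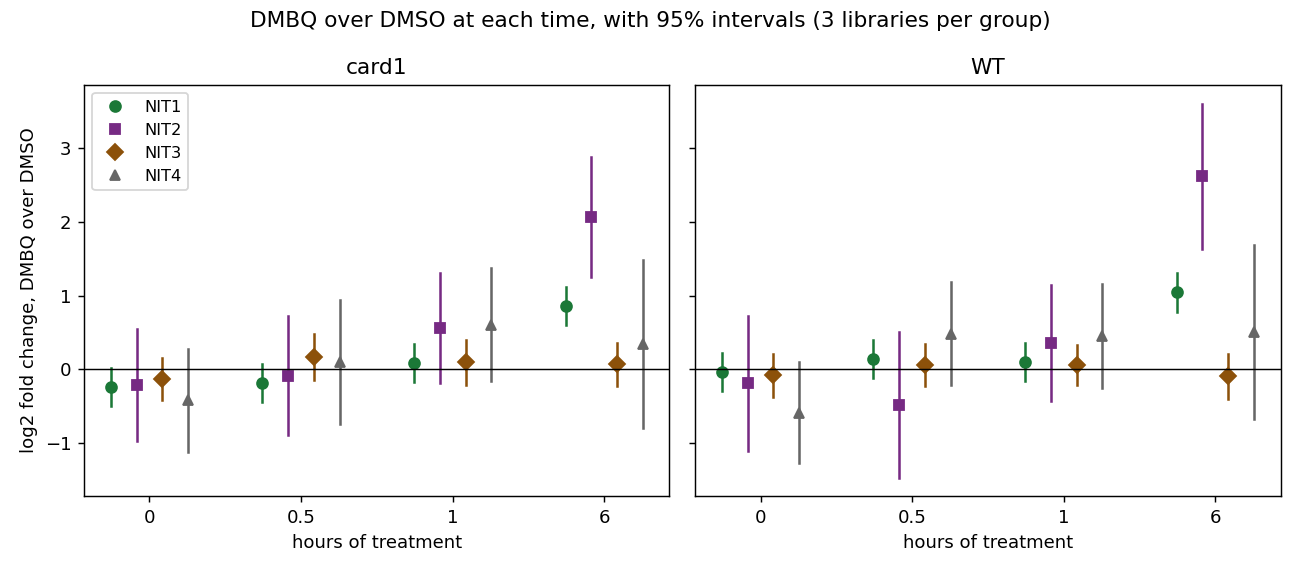
Fitted log2 fold change of DMBQ over DMSO for the 4 nitrilases at each time, with 95% intervals, in card1 (left) and WT (right). At 6 h the fitted values of NIT1 and NIT2 were 0.86 and 2.07 in card1, and 1.05 and 2.62 in WT. The intervals of NIT3 and NIT4 include 0 at every time. The WT comparison at 6 h chose the family, so its values and intervals are a description and carry no test.

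Set against their own 0 h groups, NIT1 and NIT2 with DMBQ at 6 h stood differently. NIT1 with DMBQ averaged 677.4 ± 88.8 CPM at 6 h in card1 against 717 ± 92.8 at 0 h, and 660.0 ± 65.4 at 6 h in WT against 565.5 ± 90.5 at 0 h (SD, n = 3 each), with overlapping libraries in both. With DMSO it was lower at 6 h than at 0 h in all libraries of both genotypes. NIT2 with DMBQ averaged 15.1 ± 9.40 CPM at 6 h in card1 against 7.55 ± 2.23 at 0 h, with overlap, and 12.5 ± 5.88 CPM at 6 h in WT against 4.59 ± 1.32 at 0 h, with no overlap. The WT group with DMBQ at 6 h entered the ratio that chose the family. The share of all genes with DMBQ libraries apart between these times was not counted. With DMSO NIT2 too was lower at 6 h than at 0 h in all libraries of both genotypes. The same held for 13.4% of all genes, and WT with DMSO at 6 h also entered the ratio that chose the family.

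The share of NIT2 among the reads of the 3 tandem genes is a ratio that does not depend on library scaling. It was higher with DMBQ at 6 h in both genotypes. The ratio uses the NIT2 reads already compared above, and the WT libraries at 6 h chose the family. It is therefore a description and not separate support. NIT2 held 0.387% to 3.18% of these reads over the 48 libraries, NIT1 92.4% to 97.2% and NIT3 1.68% to 5.83%. At 6 h in card1 NIT2 held 2.04% ± 1.02 with DMBQ, against 0.925% ± 0.195 with DMSO (SD, n = 3 each). At 6 h in WT it held 1.80% ± 0.804 with DMBQ, against 0.583% ± 0.171 with DMSO. In both genotypes the lowest DMBQ library (1.23% in card1, 1.29% in WT) lay above the highest DMSO library (1.07% in card1, 0.693% in WT). How often such a ratio lies apart for other genes was not counted.

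**Figure D4:**
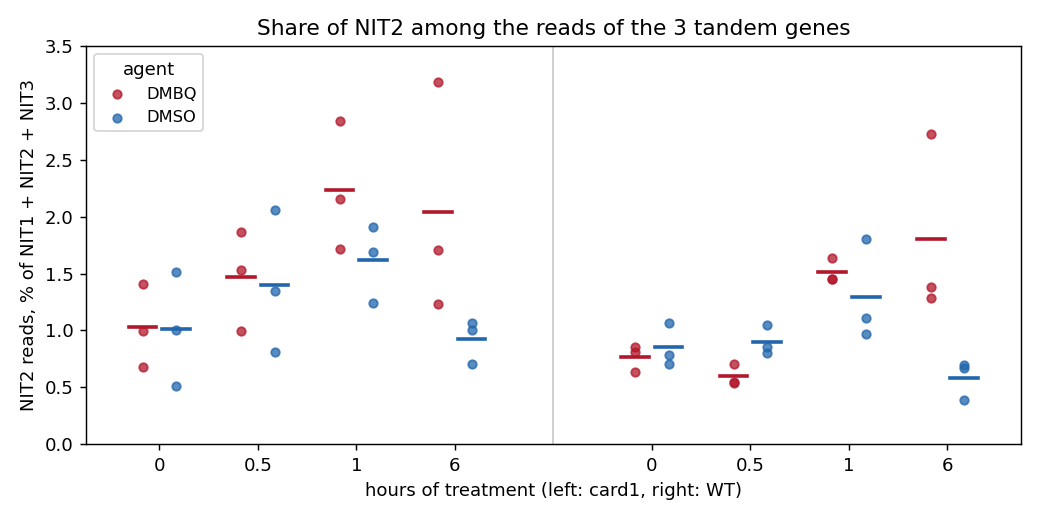
Reads of NIT2 as a percentage of the reads of NIT1, NIT2 and NIT3 in each library, by hours of treatment (evenly spaced), card1 left and WT right, DMBQ in red and DMSO in blue, with bars at the group means of 3. At 6 h the DMBQ libraries of both genotypes lie above their DMSO libraries, and 1 library in each DMBQ group at 6 h, at 3.18% in card1 and 2.73% in WT, stands above the other 2. The WT libraries at 6 h chose the family.

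NIT1 and NIT2 were higher in card1 than in WT without quinone. With DMSO, NIT1 had 938, 772 and 831 CPM in card1 at 0 h, against 580, 506 and 652 CPM in WT. At 0.5 h it had 620, 672 and 640 CPM in card1, against 447, 388 and 475 CPM in WT. At 1 h it had 576, 454 and 542 CPM in card1, against 383, 310 and 341 CPM in WT. The libraries were apart at these times, and also at 6 h with the values given above, and 0.716% of all genes had all card1 libraries above all WT libraries at each of the 4 times. Over the 4 times NIT1 averaged 597 CPM in card1 and 420.1 CPM in WT (log2 fold change 0.48 ± 0.06, adjusted p = 3.89e-07, edgeR's quasi-likelihood test). In this comparison 25.7% of genes were called and 13.2% as higher in card1, so a call by itself was common.

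NIT2 with DMSO had 4.92, 8.05 and 13.1 CPM in card1 at 0 h, against 4.77, 5.69 and 4.77 CPM in WT, with overlap. At 0.5 h it had 5.22, 9.38 and 13.8 CPM in card1, against 3.78, 4.34 and 4.26 CPM in WT. At 1 h it had 7.46, 9.10 and 9.63 CPM in card1, against 4.48, 6.04 and 3.51 CPM in WT. The libraries were apart at 0.5, 1 and 6 h, where 11.8%, 13% and 12.9% of genes lay apart with card1 above. Over the 4 times NIT2 averaged 7.63 CPM in card1 and 3.96 CPM in WT (log2 fold change 0.92 ± 0.23). WT with DMSO at 6 h entered the ratio that chose the family, and its low level raises card1 over WT. The values at 6 h and the mean over 4 times are therefore a description and carry no test. With the 6 h groups left out, the log2 fold change was 0.95 ± 0.24 (adjusted p = 0.00428, edgeR). Replicate 3 was the highest of its group for NIT2 in 7 of 8 card1 groups, against 3 of 8 WT groups, and NIT1 was highest there in 4 of 8 card1 groups and 5 of 8 WT groups. The tests over several times take libraries as independent across groups. A deviation shared by card1 libraries of the same number is not covered by their p-values. The replicate number as a block, run as an alternative, was common to both genotypes.

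The same pair was higher in card1 with DMBQ in the mean over 0.5, 1 and 6 h, with a log2 fold change of 0.29 ± 0.07 for NIT1 (adjusted p = 0.00282, edgeR) and 0.98 ± 0.22 for NIT2 (adjusted p = 0.000931), where 30.1% of genes were called and 15% as higher in card1. NIT1 had 548, 526 and 622 CPM in card1 at 0.5 h, against 502, 399.9 and 536 CPM in WT, with overlap. At 1 h NIT1 had 613, 465 and 588 CPM in card1, against 388, 320.4 and 402 CPM in WT, apart. NIT2 had 5.73, 8.53 and 12.2 CPM in card1 at 0.5 h, against 2.88, 2.98 and 3.03 CPM in WT, and at 1 h 11, 10.7 and 17.6 CPM in card1, against 6.04, 5.62 and 6.17 CPM in WT, apart at both times. With card1 above, 19.4% of genes lay apart at 0.5 h and 13% at 1 h. At 6 h both genes overlapped between the genotypes, with means of 677.4 CPM in card1 and 660.0 CPM in WT for NIT1 and 15.1 CPM in card1 and 12.5 CPM in WT for NIT2. The groups of WT at 6 h chose the family and enter the means over times in DMSO and DMBQ. With the WT 6 h groups left out of the contrast (and card1 with them), the log2 fold changes of card1 over WT were 0.57 for NIT1 (adjusted p = 3.66e-07, edgeR) and 0.95 for NIT2 (adjusted p = 0.00428) in DMSO, and 0.41 for NIT1 (adjusted p = 0.000802) and 1.35 for NIT2 (adjusted p = 0.000652) in DMBQ. The NIT1 call in DMBQ did not hold without replicate 3 of all groups (log2 fold change 0.27, adjusted p = 0.0598). NIT3 and NIT4 did not pass the test for genotype under either agent. Their log2 fold changes were -0.10 (95% interval -0.25 to 0.05) and -0.25 (95% interval -0.71 to 0.21) with DMSO, and -0.03 (95% interval -0.20 to 0.13) and -0.31 (95% interval -0.79 to 0.18) with DMBQ. Shoot markers moved with genotype too: 5 of 8 were called higher in card1 with DMSO and 3 of 8 with DMBQ, none lower, and their sum was 21330 to 41770 CPM in card1 with DMSO, against 16130 to 31210 CPM in WT with DMSO. Of the 8 root markers 1 was called lower in card1 with DMSO and none with DMBQ. The part of these markers in the nitrilase differences was not tested.

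NIT1, NIT2 and NIT4 were lower after 6 h in DMSO than at 0 h, over both genotypes, as 25.2% of all genes were, and NIT4 had the largest fold change of the family. NIT3 passed the threshold narrowly and not under every setting. NIT4 with DMSO had 15.6, 11.7 and 11.3 CPM in card1 at 0 h, 11.6, 5.43 and 5.93 at 0.5 h, 8.42, 7.48 and 6.42 at 1 h, and 2.1, 1.95 and 2.02 at 6 h. In WT it had 11.9, 27.2 and 11.3 CPM at 0 h, 6.48, 11.8 and 11.7 at 0.5 h, 5.66, 9.56 and 5.80 at 1 h, and 0.995, 2.20 and 3.57 at 6 h. The libraries at 6 h lay below those at 0 h in both genotypes, and 1 WT library at 0 h, at 27.2 CPM, stood above the rest. The level over both genotypes was 2.14 CPM at 6 h against 14.8 CPM at 0 h (log2 fold change -2.78 ± 0.32, adjusted p = 7.82e-09, edgeR) and it was already lower than at 0 h at 0.5 h (-0.78, adjusted p = 0.0323) and at 1 h (-1.06, adjusted p = 0.00137). The call at 0.5 h was lost when any of 5 of the 12 libraries was left out (adjusted p 0.0741 to 0.223 in edgeR), namely replicate 2 of WT at 0 h, replicate 1 of WT at 0.5 h, replicate 1 of card1 at 0 h and replicates 2 and 3 of card1 at 0.5 h. Without the WT library at 27.2 CPM the log2 fold change was -0.48. With DMBQ NIT4 was low at 6 h as well, at 2.57 ± 0.530 CPM at 6 h in card1 against 9.32 ± 3.54 at 0 h, and at 3.25 ± 1.20 CPM at 6 h in WT against 11.6 ± 2.71 at 0 h (SD, n = 3 each), with libraries apart. The share of all genes with DMBQ libraries apart between these times was not counted.

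NIT1 with DMSO was lower than at 0 h at each later time over both genotypes, with log2 fold changes of -0.40 at 0.5 h (adjusted p = 0.00103, edgeR), -0.72 at 1 h (adjusted p = 4.68e-08) and -1.02 at 6 h (adjusted p = 2.66e-12). NIT2 was called at 6 h alone (log2 fold change -1.32 ± 0.35, adjusted p = 0.00202), with -0.11 at 0.5 h and -0.08 at 1 h. Part of that contrast is WT with DMSO at 6 h, whose low NIT2 level entered the ratio that chose the family. In card1 alone, which the choice did not use, NIT2 was lower at 6 h (log2 fold change -1.30 ± 0.43, adjusted p = 0.0143, edgeR). NIT3 was called at 1 h (-0.30, adjusted p = 0.0211) and 6 h (-0.24, adjusted p = 0.0499), and its libraries overlapped. The NIT3 call at 1 h was lost in edgeR without any of 4 of the 12 libraries, replicate 2 at 0 h in either genotype, replicate 1 of WT at 1 h or replicate 2 of card1 at 1 h. That at 6 h was lost without any of 8 of the 12, replicates 1 and 2 at 0 h and replicates 2 and 3 at 6 h in each genotype, and in card1 alone (adjusted p = 0.131). It was also lost with DESeq2 (adjusted p = 0.0567), with no filter on low counts (0.0547), with the compared libraries alone (0.0747) and with transcript length correction, where the log2 fold change was -0.15 (adjusted p = 0.229). Of all genes 17.3% were called at 0.5 h, 7.71% as lower, 36.3% at 1 h, 18% as lower, and 50% at 6 h, 25.2% as lower. Of all genes 13.4% had all DMSO libraries at 6 h below all at 0 h in both genotypes, as NIT1, NIT2 and NIT4 had. The shoot markers moved with time as well: 7 of 8 were lower at 6 h than at 0 h in DMSO, with a median log2 fold change of -1.73 against 0.00 over all genes, and their part in the nitrilase values was not tested. Of the 8 root markers 2 were higher and 3 lower. Time of day and handling cannot be told apart from time in the medium here.

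**Figure D5:**
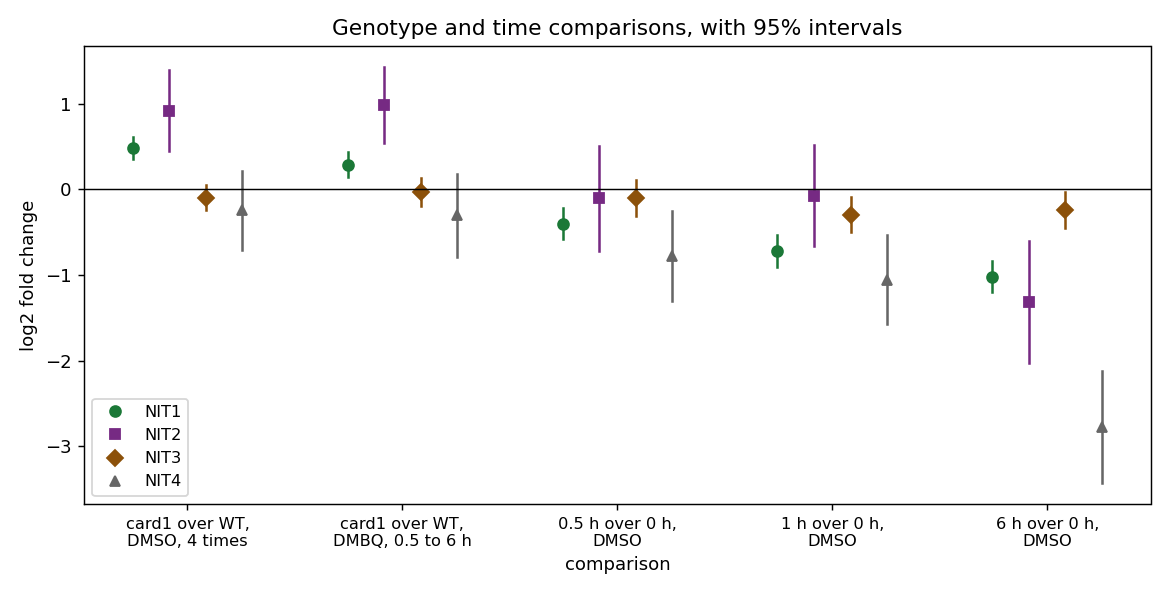
Fitted log2 fold changes of the 4 nitrilases with 95% intervals for card1 over WT and for 0.5, 1 and 6 h over 0 h in DMSO. NIT1 and NIT2 lie above 0 for card1 over WT (0.48 and 0.92 in DMSO), and NIT4 lies lowest at 6 h (-2.78). The WT groups at 6 h, which chose the family by NIT2, are part of card1 over WT and of 6 h over 0 h.

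Other genes of the pathways around the nitrilases, from lists chosen with earlier results of these data known, showed few calls for DMBQ. At 6 h no gene was called in either genotype on any of the 6 lists, by edgeR or by DESeq2, while 10 of the 73 genes in card1 and 11 in WT had an unadjusted p under 0.05 in edgeR. Over all genes 1.05% were called in card1 and 1.22% in WT, so a count of 0 among 73 is near the background. The lists held 17 tested genes for cyanide and β-cyanoalanine, 13 for glucosinolate breakdown and nitrile formation, 17 for indole-3-acetonitrile and auxin synthesis, 11 that respond to auxin, 5 other enzymes of the nitrilase superfamily and 10 for sulfur deficiency. The median log2 fold changes of the lists at 6 h ran from -0.27 (auxin-responsive genes) to 0.30 (sulfur deficiency) in card1, against -0.01 over all genes, and from -0.18 (glucosinolate breakdown) to 0.24 (sulfur deficiency) in WT, against 0.00 over all genes. By name, LSU2, a gene induced by sulfur deprivation, had 0.983 CPM with DMBQ and 0.202 CPM with DMSO in card1 (log2 fold change 2.09 ± 0.59, adjusted p = 0.0752, edgeR) and 0.780 and 0.326 CPM in WT (1.34 ± 0.66, adjusted p = 0.539). SULTR1;1, a root sulfate transporter, had 0.447 CPM with DMBQ and 0.998 CPM with DMSO in card1 (-1.18 ± 0.56), and 0.442 and 1.68 CPM in WT (-1.84 ± 0.57), with no call in either.

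The lists held 9 calls at the earlier times, with 4 of the 73 genes at 1 h in WT, where 2.78% of all genes were called, 3 at 1 h in card1 (1.18%), 1 at 0.5 h in WT (2.45%) and 1 at 0 h in card1 (5.45%). ASPGB1, an asparaginase, was higher with DMBQ at 1 h, at 48.3 CPM against 18.6 CPM with DMSO in card1 (log2 fold change 1.37 ± 0.18, adjusted p = 6.78e-07, edgeR) and at 42.1 against 15.1 CPM in WT (1.48 ± 0.17, adjusted p = 2.75e-08). APR3, a reductase of sulfate assimilation, was higher as well, at 57.7 against 18.6 CPM in card1 (1.62 ± 0.34, adjusted p = 0.00542) and at 73.3 against 28.0 CPM in WT (1.38 ± 0.30, adjusted p = 0.00448). AT1G77330, an enzyme of the family that releases cyanide when it makes ethylene, was lower with DMBQ in both genotypes (-0.57 ± 0.13, adjusted p = 0.0150 in card1, and -0.68 ± 0.13, adjusted p = 0.000384 in WT). YUC3, a flavin monooxygenase of auxin synthesis, was lower in WT at 1 h (-0.91 ± 0.22, adjusted p = 0.00938), with -0.79 ± 0.27 in card1 (adjusted p = 0.252). CYP79B2, which makes indole-3-acetaldoxime on the way to indole-3-acetonitrile, was higher in WT at 0.5 h (0.85 ± 0.21, adjusted p = 0.0260), with -0.07 ± 0.23 in card1 (adjusted p = 1.00). AT4G08790, of the nitrilase superfamily, was lower in card1 at 0 h (-0.54 ± 0.16, adjusted p = 0.0416), in the comparison whose count rests on single libraries. No other gene of the 6 lists was called for DMBQ by edgeR, and DESeq2 called 1 more, at 0.5 h in WT. For the difference of the responses, card1 minus WT, edgeR called 0 of all genes at 0.5 h and 0 at 1 h. CYP79B2 and YUC3 were thus not called as different between the genotypes.

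By genotype and time the lists held more calls than for DMBQ, and so did all genes. With DMSO, 9 of the 17 cyanide genes were higher in card1 and 5 lower, and 3 were not called. Higher and lower were 4 and 2 of the 13 glucosinolate genes, and 2 and 1 of the 17 auxin synthesis genes. The counts were 2 and 1 of the 11 auxin-responsive genes and 3 and 0 of the 5 other superfamily enzymes. Among the 10 sulfur genes they were 3 and 2. Over all genes 25.7% were called, 13.2% as higher in card1. The cyanide genes were called more often than all genes, which was not tested as a set. Of the named genes, TGG1, a myrosinase that starts glucosinolate breakdown, was higher in card1 (log2 fold change 0.23 ± 0.07, adjusted p = 0.0186, edgeR), and so were the root myrosinases BGLU34 (0.70 ± 0.16) and BGLU35 (0.55 ± 0.16). Between 6 h and 0 h in DMSO, 10 of 17 auxin synthesis genes were higher and 1 lower. Lower with none higher were 8 of 11 auxin-responsive genes and 8 of 10 sulfur genes. Of 17 cyanide genes 6 were higher and 8 lower, and the glucosinolate genes split into 2 higher and 3 lower. Over all genes 50% were called, 25.2% as lower. AOX1A, the alternative oxidase that respires in the presence of cyanide, was lower at 6 h (-1.75 ± 0.17, adjusted p = 1.13e-10), as were APR3 (-1.87 ± 0.26) and IAA1 (-0.95 ± 0.17), while CYP79B2 (0.74 ± 0.15) and CYP83B1 (0.84 ± 0.12) were higher. Of the other superfamily enzymes 1 was higher and 2 lower, with AT1G55090, an NAD synthetase, at 0.16 ± 0.05.

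None of the genes beside the nitrilases passed the test for DMBQ. Of the 8 nearest annotated genes with a row in the table, 5 could be tested, AT3G44280 and AT3G44326 beside the cluster and NAC089, AT5G22280 and AT5G22310 beside NIT4, and none was called for DMBQ at any time in either genotype by edgeR or DESeq2, with 1 of 40 tests at an unadjusted p under 0.05 in edgeR. NAC060 had at most 6 reads in a library, and AT3G44325 and AT5G22315 had 0. NAC089, a transcription factor gene 1410 bases from NIT4, was lower at 6 h than at 0 h in DMSO (log2 fold change -0.47 ± 0.12, adjusted p = 0.00106, edgeR), and so was the F-box gene AT3G44326 (-1.22 ± 0.29, adjusted p = 0.000506).

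Profiles over the 16 group means were compared with those of 17739 genes by Pearson's r of log2 CPM, as a description, since groups share genotype, agent and time. Closest to NIT1 were MAT3, a methionine adenosyltransferase (r = 0.934), AT2G45300, annotated as an enolpyruvate transferase (0.931), and CCoAOMT1, a methyltransferase (0.919). NIT2 ranked 174th for NIT1, with r = 0.704, and NIT1 ranked 27th for NIT2. Closest to NIT2 were AT4G37520, of the peroxidase superfamily (0.823), AT1G10682 (0.794) and the protein kinase gene CIPK12 (0.786). By Pearson's r over the 48 libraries AT1G10682 was not among the 3 closest, with 0.5942 against 0.6255 for NIT1. AT4G37520 had 164.7 CPM with DMBQ at 6 h and 82.1 with DMSO in card1, and 164.8 CPM with DMBQ and 69.2 with DMSO in WT. NIT3 was closest to TPR2 (0.887), the cytokinin oxidase gene CKX7 (0.882) and TCL2 (0.858), over a range of levels that is small beside its error. These names depend on the measure. By Spearman's rho 1 of the 3 stayed among the 3 closest to NIT3, and by Pearson's r over the 48 libraries 0 did. NIT4 was closest to AT1G75280, annotated as NmrA-like (0.980), the transporter gene AT2G48020 (0.978) and the glycosyltransferase gene UGT74E2 (0.974). UGT74E2 was at 0.158 CPM at 6 h and 7.81 CPM at 0 h in DMSO, over both genotypes. Among the tandem genes NIT3 had r = 0.140 with NIT1 and -0.365 with NIT2, and NIT4 had r = 0.594 with NIT3 and 0.302 with NIT1.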

How the data were processed

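The authors deposited 1 table of raw read counts per gene for 48 libraries (mRNA kit libraries on a NextSeq500, per the labels' protocols). The submitters' processing notes name HISAT2 2.1.0, HTSeq 0.6.1 and the build TAIR10. The sources used here do not give the annotation version, the strand setting or the read length. HTSeq's 5 summary rows, which name no gene, stayed out. Among all entered reads, those aligned to more than 1 place came to 6.53% to 13.3%, those unaligned to 2.64% to 7.25%, those in no feature to 1.28% to 2.08% and ambiguous ones to 0.655% to 0.735%.

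Counts were fitted in R 4.3.3 with edgeR 4.0.16 (TMM, filterByExpr with a minimum count of 10, 1 mean per group over all 48 libraries, robust quasi-likelihood test, Benjamini-Hochberg over 19839 genes, called at 0.05). The pipeline was tested on simulated data, and expression levels in the report are CPM from the same TMM sizes. Alternatives were DESeq2 1.42.0, RLE scaling, no filter, the compared libraries only, transcript length correction, the replicate number as a block, leaving out libraries and leaving the WT 6 h groups out of a contrast. Replicates differed by more than counting error (chi-square per degree of freedom 2.06 to 15.7 over 48 pairs). DMBQ and DMSO libraries of the same number deviated together with every r over 0.1 in 4 of 8 comparisons (WT 0 h, card1 0, 0.5 and 1 h). At 6 h r was over 0.1 for 2 of the 3 numbers in card1 (highest 0.172) and for 0 in WT. Of 33602 gene rows, 32835 had an entry in RefSeq TAIR10.1, from which gene structures and sequences were taken; protein sequences were not used here. The members, the gene lists and the rule for named genes (the members, CARD1, the 4 genes of each list with the smallest p over the DMBQ comparisons after 0 h, the 3 most alike genes and the nearest neighbours) were chosen with earlier results of these data known.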

Additional observations from a re-analysis of the deposited data

How the results depend on the processing

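For the 27 log2 fold changes of members given with an alternative, 516 of 549 alternative values kept the direction and the side of the threshold, 28 lost a call, 0 gained one and 5 changed sign. For DMBQ at 6 h in WT, which carries no test, values were counted as kept where they stayed within the spread between replicates. A change of sign was not counted there, and NIT3 in that comparison ran from -0.21 to 0.058 when 1 library was left out. NIT1 kept its calls for DMBQ at 6 h in card1, for genotype in DMSO and for time under all alternatives run, and its call for genotype in DMBQ was lost without replicate 3 of all groups. That alternative and the one without the WT 6 h groups were chosen after seeing the data. With scaling and model fitted on the compared libraries alone, the members called numbered 1 at 6 h in card1 (NIT1) and 1 at 0.5 h against 0 h in DMSO. Without replicate 3 of all groups 1 member was called for genotype in DMBQ and 1 at 0.5 h against 0 h. Leaving out 1 library gave 1 to 2 members called at 6 h in card1 and 1 to 2 at 0.5 h against 0 h. The sign of NIT3 turned for genotype in DMBQ under transcript length correction (0.018) and without replicate 3 of all groups (0.023), and it ran from -0.086 to 0.0039 when 1 library was left out. All these NIT3 values were small beside their SE. The cause was not tested in any of these cases.

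Counts over all genes moved more. With the compared libraries alone they were 45 for DMBQ in WT at 0 h and 790 at 6 h, 0, 10 and 153 in card1 at 0, 0.5 and 1 h, 5 for the difference of responses at 0.5 h, and 2079 for 0.5 h against 0 h. DESeq2 called 53 genes in WT at 0 h, 9 for the difference of responses at 0.5 h and 1 at 1 h. Transcript length correction left 6 genes in card1 at 0 h. Without replicate 3 of all groups the counts were 0 in WT at 0 h, 3589, 15 and 124 in card1 at 0, 0.5 and 1 h, and 28 and 1 for the difference of responses at 0.5 and 6 h. Leaving out 1 library gave 0 to 24 genes in WT at 0 h, 118 to 402 at 0.5 h and 132 to 194 at 6 h, 0 to 4103 in card1 at 0 h, 16 to 32 at 0.5 h and 133 to 258 at 6 h, and 0 to 58 for the difference of responses at 0.5 h. The replicate number as a block gave 46 genes in WT at 0 h and changed no other count by more than 1.5 times and no call of a member, and 18 of 24 libraries correlated best with their own number across agents. RLE scaling moved the median of all genes by at most 0.0154 and length correction by at most 0.0254 (log2). Depth limits NIT2 and NIT4, with 7 and 5 reads in their lowest libraries.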
